A study of Mus musculus with 6 samples.

Results

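Interferon-stimulated genes were read in primary chondrocytes of wild type and Girk3-null mice, as 42 listed genes that respond to interferon and lie outside the cluster of PYHIN genes on chromosome 1. All 42 were found by symbol among the 43346 genes of the deposited table, and all 42 passed the filter on low counts, which kept 17554 genes. The animals were 5 days old, of C57BL/6 background and labelled male. The 3 wild type and 3 Girk3-null libraries each came from cells that collagenase had released from the epiphyseal cartilage. By the series text the replicates are biological. Girk3 is a subunit of G protein-gated potassium channels, encoded by Kcnj9, and the comparison asked which transcripts differ without it. The labels do not describe the null allele.

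Total counts ran from 34279516 to 60392837 per library. Kcnj9 had 0 counts in all 6 libraries, which allows up to 3 counts in each, so it could not check the genotype labels. All 10 chondrocyte markers, such as Col2a1 and Acan, were counted in every library, with summed levels of 63976, 49522 and 82646 CPM in wild type and 77072, 107761 and 120133 CPM in Girk3-null libraries (counts relative to library size, which was scaled by TMM factors). Their log2 fold changes (Girk3-null over wild type) were positive for 9 of 10, with a median of 0.51, and 0 passed the genotype test in edgeR. At an unadjusted p under 0.05 in edgeR 5 of the 10 were higher, as were 7.49% of all genes tested. The part of these markers in the results below was not tested. Girk3-null replicate 1 had 16088 counts of 4 Y-linked genes and 19 of Xist, while the other 5 libraries had 0 to 7 and 67346 to 144825, so 5 libraries went against the male label. Sample titles carry a number, below 200 for Girk3-null replicate 1 and for wild type replicates 1 and 2, and above 200 for the other 3. The labels do not say what that number stands for. The genotype test is given with all libraries and with each left out in turn. Levels, spreads, title-range differences and marker sums are given with no library left out.

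Type I interferons are secreted when cells detect foreign or misplaced nucleic acid. Type I interferon signals through Ifnar1 and Ifnar2 to a complex that includes Stat2 and Irf9 and binds the interferon-stimulated response element in promoters, while interferon gamma signals through Ifngr1 and Ifngr2 to factors that bind another site. The induced genes include sensors of viral RNA, proteins that block viral replication, GTPases that attack the vacuoles of intracellular pathogens, and parts of the antigen-processing machinery.

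Promoter windows of 300 bases (250 before to 50 after the annotated start) were taken from RefSeq on GRCm38.p6 and matched 33 of the 42 genes. The core letters of the response element, GAAA, any 2 bases and GAAA again on either strand, stood in the window of 15 of these 33 genes (45.5%) and of 3.99% of 27025 genes with a window. They were present in 5 of 6 GTPase genes, 5 of 10 antiviral effector genes and 0 of 3 antigen-processing genes. The letters TTCNNNGAA, the core of the interferon gamma site, stood in 8 of 33 (24.2%) against 9.55% of all genes. A match describes letters and shows no binding. The 7 genes below were each highest in wild type replicate 1, as were 38 of all 42 genes. Their stretches lie upstream on 6 chromosomes and show the letters in several roles. They run 5′ to 3′ on the gene's strand, with the matched letters in capitals; where matches overlap, the capitals run on.
Ifit1, chr19:34640765-34640833, plus strand: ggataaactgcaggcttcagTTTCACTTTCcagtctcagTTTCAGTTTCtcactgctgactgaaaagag
Rsad2, chr12:26456543-26456592, minus strand: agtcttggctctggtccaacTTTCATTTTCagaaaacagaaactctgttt
Isg15, chr4:156200855-156200916, minus strand: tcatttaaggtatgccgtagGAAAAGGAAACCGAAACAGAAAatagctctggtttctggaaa
Oas1a, chr5:120907526-120907565, minus strand: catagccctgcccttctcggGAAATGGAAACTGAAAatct
Gbp2, chr3:142620584-142620633, plus strand: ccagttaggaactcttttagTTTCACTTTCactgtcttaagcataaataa
Irgm2, chr11:58214893-58214942, plus strand: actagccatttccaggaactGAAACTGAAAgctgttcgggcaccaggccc
Igtp, chr11:58199502-58199551, plus strand: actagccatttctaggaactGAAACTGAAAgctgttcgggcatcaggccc

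The matches began at 104 bases before the start in Ifit1, 120 in Rsad2, 78 in Isg15, 20 in Oas1a, 59 in Gbp2, 64 in Irgm2 and 34 in Igtp. Isg15 held 3 matches and Ifit1 and Oas1a 2 each. The stretches of the neighbouring GTPase genes Irgm2 and Igtp are close copies. Among genes with the response element letters the median log2 fold change between genotypes was -0.55, with 14 of 15 negative, and among the 18 without them it was -0.35, with 14 negative. The 18 include Tap1, Psmb9, Ifi35 and Lgals3bp, which were positive. The genes with no window are in neither class, and all were negative, from -2.26 for Iigp1 to -0.11 for Dhx58. A link between the letters and the fold change was not tested.

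None of the 42 genes passed the genotype test. In edgeR's quasi-likelihood test 0 were called at an adjusted p under 0.05, as against 1 of 17554 genes tested (0.0057%), and limma-voom also called 0. DESeq2 called 0 of the 42 as well, while it called 1.09% of its tested genes as lower and 1.12% as higher in Girk3-null libraries. At an unadjusted p under 0.05, 2 were lower in Girk3-null libraries, Iigp1 and Samd9l, and 0 were higher, a share near or below the background, since 7.02% of all genes tested were lower and 7.49% higher at that threshold. The log2 fold change (Girk3-null over wild type) was negative for 37 and positive for 5, with a median of -0.54, while over all genes tested 48.2% were negative and the median was 0.01. For 0 of 42 did the libraries of one genotype all lie below or above those of the other, whereas the Girk3-null libraries were entirely lower for 10.2% of all genes tested and entirely higher for 9.86%. Leaving out 1 library moved the median to -0.12 when wild type replicate 1 was dropped and to -0.81 when wild type replicate 3 was dropped. Dropping Girk3-null replicate 1, the library with Y-linked transcripts, gave -0.32, and dropping Girk3-null replicate 2 gave -0.97. The number lower at an unadjusted p under 0.05 became 24 when wild type replicate 3 was left out, where 10.8% of all genes were lower, and 12 when Girk3-null replicate 2 was left out, where 5.90% were. It was 1 for each of the other 4 libraries, where 2.49% to 7.81% of all genes were lower.

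**Figure D1:**
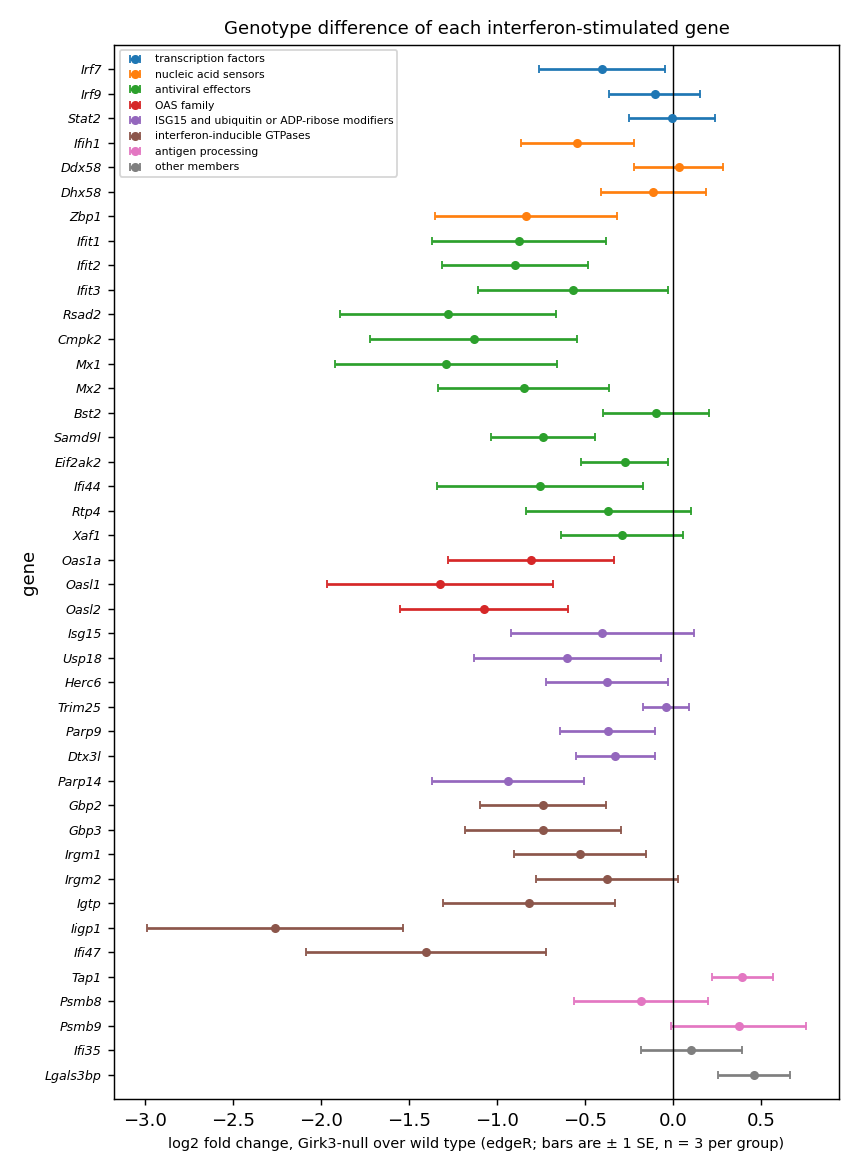
Log2 fold change of each of the 42 genes (x axis, Girk3-null over wild type; points from edgeR, bars ± 1 standard error, 3 libraries per group), coloured by role. Most points lie left of 0, Iigp1 farthest at -2.26, while Tap1, Psmb9, Ifi35, Ddx58 and Lgals3bp lie right of it.

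Levels also differed between libraries of the same genotype. Wild type replicate 1 had the highest level of all 6 libraries for 38 of 42 genes, where it was highest for 12.3% of all genes tested. The lowest level fell in Girk3-null replicate 1 for 20 genes, in wild type replicate 3 for 17, in Girk3-null replicate 3 for 4 and in wild type replicate 2 for 1; over all genes tested Girk3-null replicate 1 was lowest for 25.3% and wild type replicate 3 for 11.1%. The ratio of the highest to the lowest wild type library had a median of 2.95 over the 42 genes, with a range of 1.19 to 8.26, as against 1.29 over all genes tested. For all 42 that ratio was larger than the ratio between the genotype means, which was also the case for 73.1% of all genes with both ratios. A ratio of extremes and a ratio of means are unlike measures, so this does not rank the spread against the genotype difference. The median over the genes of the log2 deviation from each gene's own mean stood at 0.94, 0.35 and -0.60 in the wild type libraries and at -0.54, 0.25 and -0.43 in the Girk3-null libraries, each in replicate order. The order of libraries was thus wild type 1 and 2, Girk3-null 2 and 3, Girk3-null 1 and wild type 3, which mixes the genotypes.

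**Figure D2:**
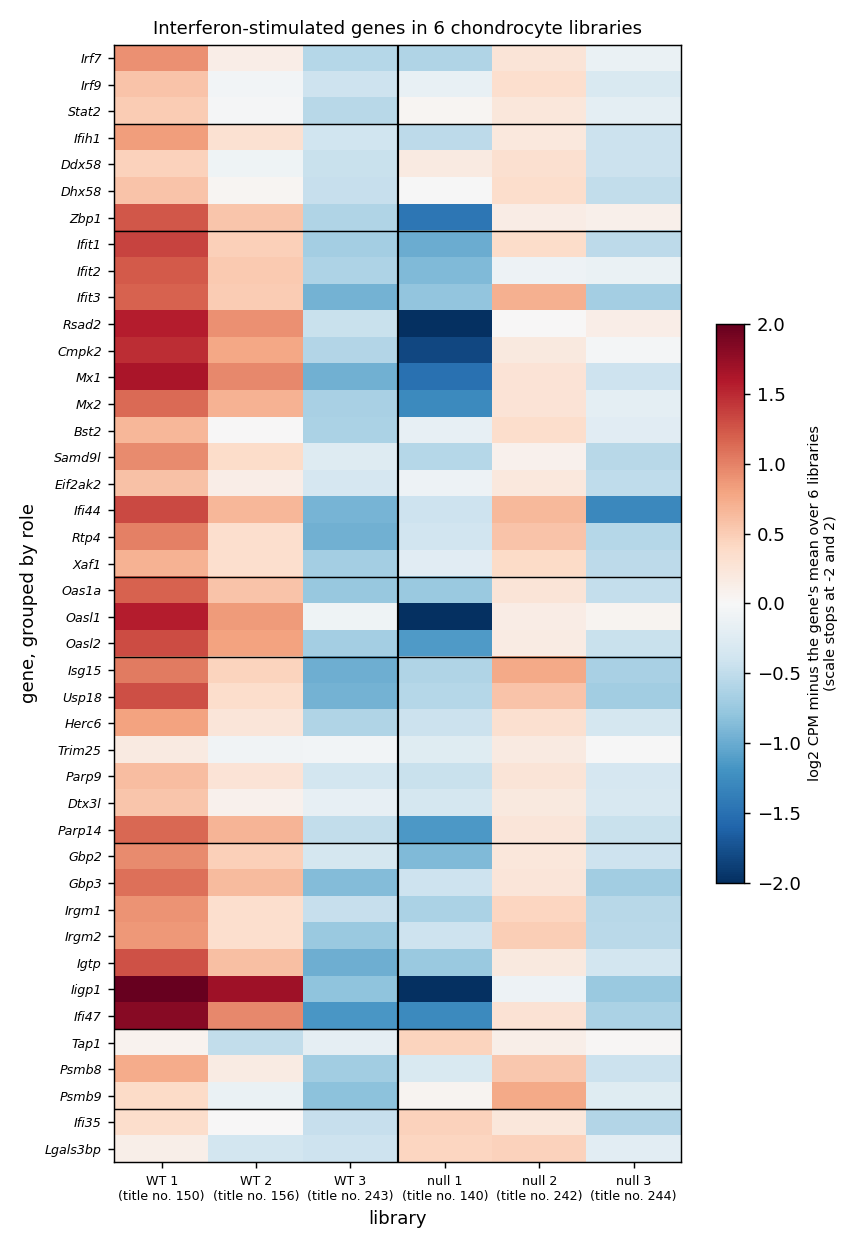
Log2 CPM of each of the 42 genes (rows, grouped by role) in each library (columns, with the number in the sample title) minus the gene's mean over the 6 libraries; red is above and blue below that mean. The column of wild type replicate 1 is the highest for 38 genes, and Tap1, Psmb9, Ifi35 and Lgals3bp are the exceptions.

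Within each range of title numbers the genotypes differed in opposite directions. Below 200, Girk3-null replicate 1 was lower than the mean of wild type replicates 1 and 2 for 39 of 42 genes, with a median log2 CPM difference of -1.23, and it lay below both for 36. Above 200, the mean of Girk3-null replicates 2 and 3 was higher than wild type replicate 3 for 42 of 42, with a median of 0.58, and both lay above it for 33. Over all genes tested the corresponding shares were 48.6% negative below 200 and 49.0% positive above 200, and the libraries stood apart in those directions for 42.2% and 30.8%. Both directions together occurred for 39 of 42 genes and 22.0% of all genes tested. The 42 genes varied together across the 6 libraries, with a median pairwise correlation of 0.87. For 41 of 42 the correlation with the median of the others was positive. The counts of genes here and above are therefore not counts of independent observations. By role, the median difference below 200 was -2.19 for the OAS family, -1.63 for antiviral effectors and -1.59 for GTPases. It was -0.41 for transcription factors, -0.063 for antigen processing and 0.42 for the remaining genes, Ifi35 and Lgals3bp. Above 200 it lay between 0.39 and 0.74 for every role. With 1 library on 1 side in each range, no test was made, and below 200 that library is the one with Y-linked transcripts. With a term for the title number range in edgeR, the median was -0.29, 32 were negative, and 0 were called.

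**Figure D3:**
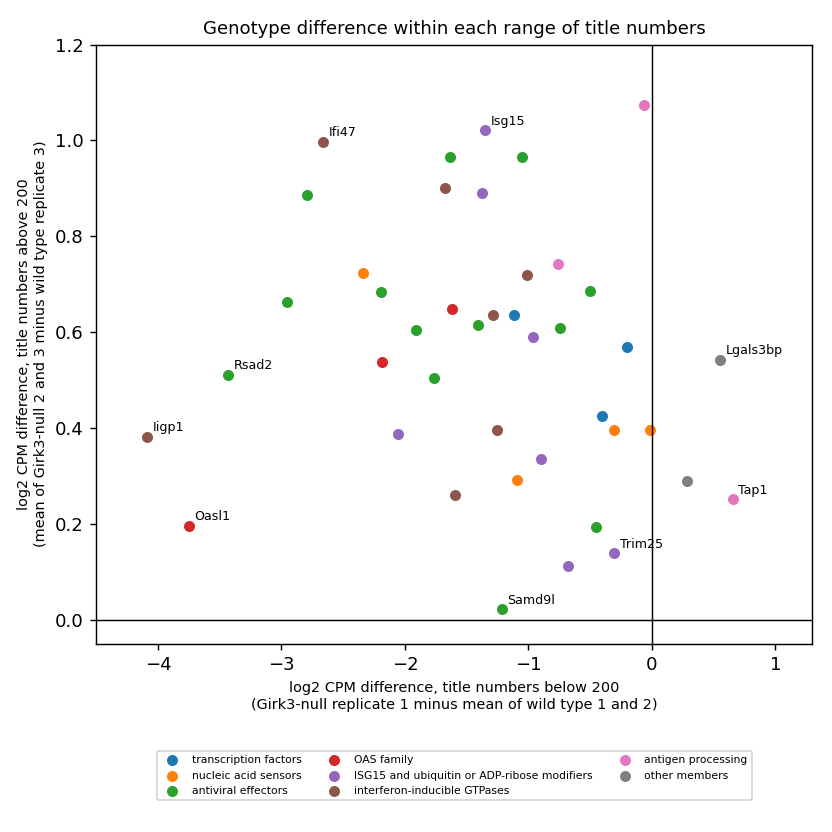
Each point is 1 of the 42 genes, with the log2 CPM difference of Girk3-null against wild type libraries among title numbers below 200 on the x axis and above 200 on the y axis, coloured by role. All 42 points lie above 0 on the y axis and 39 lie left of 0 on the x axis, with Tap1, Ifi35 and Lgals3bp to the right.

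The transcription factors were Irf7, which drives a second wave of interferon production, and Irf9 and Stat2, the partners in the factor that binds the response element. Irf7 (chromosome 7, 141262706 to 141266481, mm10) measured 35.6, 20.5 and 12.6 CPM in wild type and 12.4, 22.4 and 17.2 CPM in Girk3-null libraries; values stand in replicate order here and below. Irf9 measured 49.8, 32.2 and 25.2 CPM in wild type and 30.2, 42.4 and 26.9 CPM in Girk3-null libraries. Both were highest in wild type replicate 1 and the groups overlapped, with log2 fold changes of -0.41 (standard error 0.36, edgeR adjusted p = 0.594) and -0.11 (0.26, adjusted p = 0.862). Stat2 measured 64.1, 44.1 and 30.6 CPM against 46.2, 52.7 and 39.2 CPM. Its genotype means were almost equal (log2 fold change -0.01, standard error 0.24, edgeR adjusted p = 0.993) although the highest wild type library stood 2.09 times above the lowest. Irf7 overlaps Phrf1 on the opposite strand and Irf9 overlaps Rnf31 on its own strand. Reads in the overlap cannot be told apart for Irf9, nor for Irf7 where counting ignores strand.

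The sensors of foreign nucleic acid are Ddx58 (RIG-I), Ifih1 (MDA5), Dhx58 (LGP2) and Zbp1, which binds left-handed double helices. Ddx58 measured 65.1, 44.4 and 34.4 CPM in wild type and 53.2, 58.8 and 34.9 CPM in Girk3-null libraries. Ifih1 measured 15.4, 10.6 and 6.49 CPM in wild type and 5.99, 9.95 and 6.36 CPM in Girk3-null libraries. Neither was called, Ddx58 with nearly equal genotype means (log2 fold change 0.03, standard error 0.26, edgeR adjusted p = 0.967) and Ifih1 with a lower Girk3-null mean (-0.55, standard error 0.32, adjusted p = 0.435). Zbp1 spread the most of the 4, with 10.3, 6.38 and 2.85 CPM in wild type and 1.57, 4.84 and 4.65 CPM in Girk3-null libraries. Dhx58 measured 10.9, 7.62 and 5.32 CPM against 7.36, 9.44 and 5.21 CPM, and shares its locus with the antisense gene Dhx58os, which had 3981 counts in all to its own 2163. Log2 fold changes were -0.84 for Zbp1 and -0.11 for Dhx58, with adjusted p-values of 0.451 and 0.873 in edgeR, and the groups overlapped for both.

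All 13 antiviral effectors had negative log2 fold changes, with a median of -0.76, and 0 passed. Bst2, or tetherin, which holds budding virus on the cell surface, had the highest level per length of the 13, with a mean of 36.3 RPKM (counts relative to gene length and library total, as deposited) over the 6 libraries. It measured 41.8, 26.6 and 17.1 CPM in wild type and 23.5, 33.7 and 22.4 CPM in Girk3-null libraries (log2 fold change -0.10, standard error 0.30, edgeR adjusted p = 0.892). Its wild type libraries thus spread on both sides of the Girk3-null ones. The IFIT proteins bind viral RNA that lacks host marks, and their genes lie together on chromosome 19, between 34550694 and 34650009 (mm10). Ifit3, at a mean of 19.8 RPKM, measured 65.6, 41.0 and 14.9 CPM in wild type and 16.7, 47.2 and 18.0 CPM in Girk3-null libraries. Ifit1 measured 52.3, 28.8 and 12.8 CPM in wild type and 10.3, 26.5 and 14.3 CPM in Girk3-null libraries. Wild type replicate 1 was 4.40 and 4.08 times wild type replicate 3 for these genes, and the log2 fold changes were -0.57 (standard error 0.54, edgeR adjusted p = 0.623) and -0.88 (0.49, adjusted p = 0.414). Ifit3 has a close copy beside it, Ifit3b, and reads may be split between them.

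Samd9l, a restriction factor that halts translation, had the smallest p-value of the effectors. It measured 59.0, 39.5 and 25.7 CPM in wild type and 20.8, 32.6 and 20.9 CPM in Girk3-null libraries, and the log2 fold change was -0.74 (standard error 0.30, edgeR adjusted p = 0.321). Girk3-null replicate 2 still stood above wild type replicate 3. Rsad2 (viperin) and Cmpk2, neighbours on chromosome 12 whose enzymes together make a chain-terminating nucleotide, had log2 fold changes of -1.28 and -1.13. Mx1 and Mx2, dynamin-like GTPases that trap viral nucleoproteins, had -1.29 and -0.85, with Mx1 at a mean of 1.09 RPKM. The Mx1 gene of C57BL/6 mice is known to carry a deletion that spoils its protein. The remaining effectors were Ifit2 (-0.90), Ifi44 (-0.76), Rtp4 (-0.37), Xaf1 (-0.29) and the RNA-activated kinase Eif2ak2 (-0.28). Adjusted p-values of the 9 genes named without their library values ranged in edgeR from 0.354 for Ifit2 to 0.724 for Rtp4. Their groups overlapped in every case.

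The OAS family makes the second messenger that activates RNase L, or, in the OAS-like members, binds RNA by related folds. Oasl2 measured 36.9, 26.2 and 9.30 CPM in wild type and 6.78, 16.7 and 10.9 CPM in Girk3-null libraries. Oasl1, which lowers the translation of Irf7, measured 11.1, 6.79 and 3.51 CPM in wild type and 0.607, 4.17 and 3.90 CPM in Girk3-null libraries. Oas1a measured 6.42, 4.18 and 1.63 CPM in wild type and 1.65, 3.35 and 1.995 CPM in Girk3-null libraries. Girk3-null replicate 1 was the lowest library for both OAS-like genes, while wild type replicate 3 was the lowest for Oas1a. The log2 fold changes were -1.08 for Oasl2 (standard error 0.48), -1.33 for Oasl1 (0.64) and -0.81 for Oas1a (0.47), with edgeR adjusted p-values of 0.346, 0.368 and 0.430. Oas1a has several close copies in its cluster, and reads shared among them may have been split or lost in counting.

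Isg15 encodes a ubiquitin-like protein that is linked to newly made proteins. Herc6 is the mouse ligase that attaches it and Usp18 the protease that removes it and damps the type I receptor. Isg15 (chromosome 4, 156199424 to 156200818, mm10) measured 30.4, 19.96 and 7.47 CPM in wild type and 9.65, 24.8 and 9.32 CPM in Girk3-null libraries. Usp18 measured 21.3, 11.2 and 4.51 CPM in wild type and 5.91, 13.1 and 5.39 CPM in Girk3-null libraries. In both genes Girk3-null replicate 2 was the second highest library and wild type replicate 3 the lowest, with log2 fold changes of -0.40 (standard error 0.52, edgeR adjusted p = 0.728) and -0.60 (0.53, adjusted p = 0.594). Herc6 had a log2 fold change of -0.38 (adjusted p = 0.614 in edgeR).

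Trim25, the ubiquitin ligase that assists RIG-I, was the steadiest of the 42 genes across wild type libraries. It measured 100.1, 84.2 and 84.8 CPM in wild type and 74.2, 99.3 and 87.7 CPM in Girk3-null libraries, and its highest wild type library was 1.19 times its lowest (log2 fold change -0.04, standard error 0.13, edgeR adjusted p = 0.896). Parp14, an ADP-ribosyltransferase, measured 53.3, 38.3 and 17.1 CPM in wild type and 10.8, 28.4 and 17.6 CPM in Girk3-null libraries (-0.94, standard error 0.43, edgeR adjusted p = 0.354). Its neighbours Parp9 and Dtx3l, whose proteins act as a pair, had -0.37 and -0.33, with adjusted p-values of 0.516 and 0.489 in edgeR. Parp9 and Dtx3l overlap on opposite strands, so their reads cannot be told apart there where counting ignores strand.

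The interferon-inducible GTPases are guanylate-binding proteins and immunity-related GTPases that act on pathogen vacuoles and respond strongly to interferon gamma. All 7 had negative log2 fold changes, with a median of -0.74, and 0 passed. Iigp1 (chromosome 18, 60376029 to 60392627, mm10) had the smallest p-value of all 42 genes. It measured 16.5, 12.2 and 2.12 CPM in wild type and 0.793, 3.48 and 2.21 CPM in Girk3-null libraries. Wild type replicates 1 and 2 stood far above the other 4 libraries, and wild type replicate 3 lay below Girk3-null replicates 2 and 3. The log2 fold change was -2.26 (standard error 0.73, unadjusted p = 0.0133, edgeR adjusted p = 0.291), and the adjusted p ran from 0.0561 without wild type replicate 3 to 0.814 without wild type replicate 2.

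Gbp2 measured 31.9, 22.8 and 12.9 CPM in wild type and 8.91, 19.4 and 12.3 CPM in Girk3-null libraries. Gbp3 measured 27.9, 20.03 and 7.08 CPM in wild type and 9.67, 15.3 and 7.92 CPM in Girk3-null libraries. Their log2 fold changes were alike at -0.74 each (standard errors 0.36 and 0.44, edgeR adjusted p = 0.368 and 0.442), and for both genes Girk3-null replicate 2 lay between wild type replicates 2 and 3. Igtp (Irgm3) measured 20.4, 12.9 and 4.25 CPM in wild type and 5.03, 9.70 and 6.55 CPM in Girk3-null libraries (-0.82, standard error 0.49, edgeR adjusted p = 0.438). The regulatory GTPases Irgm1 and Irgm2 had -0.53 and -0.38, and Ifi47, at a mean of 1.14 RPKM, had -1.41 with an adjusted p of 0.368 in edgeR. Ifi47 had the widest wild type spread of the 42, 8.26 times between replicates 1 and 3. Igtp and Irgm2 overlap on the same strand, and their reads may be shared. The same is the case for Gbp3 with Gbp5 and for Ifi47 with Olfr56.

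The antigen-processing genes lie side by side in the major histocompatibility region of chromosome 17, and 2 of the 3 had positive log2 fold changes. Tap1, one chain of the pump that carries peptides into the endoplasmic reticulum, measured 27.3, 18.5 and 22.9 CPM in wild type and 35.4, 28.3 and 26.4 CPM in Girk3-null libraries. It was highest in Girk3-null replicate 1, the library in which 20 of the other genes were lowest, and only wild type replicate 1 reached into the Girk3-null range (log2 fold change 0.39, standard error 0.17, edgeR adjusted p = 0.346). Psmb8, an immunoproteasome subunit, measured 10.2, 6.84 and 3.78 CPM against 4.93, 8.94 and 4.52 CPM, and its partner Psmb9 measured 2.52, 1.75 and 1.07 CPM against 2.01, 3.28 and 1.62 CPM. Psmb8 was highest in wild type replicate 1 and Psmb9 in Girk3-null replicate 2 (log2 fold changes -0.18 and 0.37, edgeR adjusted p = 0.836 and 0.654). Psmb9 had 572 counts in all and overlaps Tap1, with 7411, on the opposite strand.

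Lgals3bp, a secreted glycoprotein that binds galectins, had the highest level per length of the 42 genes, a mean of 36.4 RPKM. It measured 109.1, 77.9 and 75.4 CPM in wild type and 135.5, 138.0 and 87.4 CPM in Girk3-null libraries (log2 fold change 0.46, standard error 0.21, edgeR adjusted p = 0.347). Ifi35 measured 18.6, 14.6 and 10.5 CPM in wild type and 20.03, 17.1 and 9.70 CPM in Girk3-null libraries (0.10, standard error 0.29, adjusted p = 0.885). Both had Girk3-null replicate 1 above wild type replicates 1 and 2, unlike most of the others.

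The ligands that could induce these genes were at the limit of counting. Ifnb1 had 27 counts over all 6 libraries and 0.0169 to 0.202 CPM, and Ifng had 15 counts with 0 in wild type replicate 3 and Girk3-null replicate 1. None of the 22 ligand entries had enough counts to be tested. A count of 0 allows 0.0506 to 0.0935 CPM, depending on the library, for counting error only. Of the 6 receptor chains, 5 were well counted. Ifnar1 measured 92.3, 89.8 and 87.2 CPM in wild type and 89.2, 75.9 and 83.4 CPM in Girk3-null libraries, and Ifngr1 measured 45.5, 45.8 and 44.9 CPM against 39.3, 41.1 and 43.0 CPM. Ifnar2 measured 36.7, 33.8 and 32.0 CPM in wild type and 50.8, 38.8 and 39.3 CPM in Girk3-null libraries, and Ifngr2 measured 62.0, 54.5 and 60.6 CPM against 51.4, 49.7 and 61.8 CPM. The groups did not overlap for Ifngr1 and Ifnar2, whose log2 fold changes were -0.14 and 0.33 (edgeR adjusted p = 0.475 and 0.322). Over all genes tested, the Girk3-null libraries were entirely lower for 10.2% and entirely higher for 9.86%. Il10rb and Ifnlr1, the chains of the interferon lambda receptor, measured 16.4 to 25.9 CPM and 1.21 to 2.89 CPM over the 6 libraries, with overlapping groups (log2 fold changes 0.073 and 0.31, edgeR adjusted p = 0.854 and 0.667).

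Of the 87 other pathway genes that could be tested, 48 of them further interferon-stimulated genes, 0 passed in either direction in edgeR, with a median of -0.07. At an unadjusted p under 0.05 in edgeR, 6 were lower and 6 higher. These shares were near those of all genes tested, of which 7.02% were lower and 7.49% higher. The highest wild type library was at a median of 1.10 times the lowest for the 6 receptors and 1.26 times for the 10 kinases and factors below them. Irf1, the early factor of the interferon gamma response, measured 77.2, 81.0 and 41.7 CPM in wild type and 36.7, 52.3 and 52.9 CPM in Girk3-null libraries, and was not called (log2 fold change -0.50, edgeR adjusted p = 0.379). The smallest p-values elsewhere in these lists belonged to the kinases Jak2 (-0.21), Tyk2 (0.44) and Jak1 (-0.15), and to Mb21d1 (the DNA sensor cGAS, -0.60), Tbk1 (-0.18), Mavs (0.27) and Ikbke (0.27). Among negative regulators and nucleic acid enzymes they belonged to Isg20 (0.99), Samhd1 (0.42), Rnaseh2c (0.50) and Socs3 (-0.16).

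The cell digests also held RNA of other cells. Neutrophil markers had a summed level of 665, 409 and 212 CPM in wild type and 294, 614 and 93.4 CPM in Girk3-null libraries, with 8 of 9 markers counted in every library. Erythroid markers summed to 213, 279 and 79.0 CPM in wild type and 56.4, 160.3 and 90.3 CPM in Girk3-null libraries, all 11 counted in every library. B lineage markers summed to 3.96, 8.90 and 3.03 CPM against 3.02, 11.8 and 4.15 CPM. For these 3 lists, wild type replicate 3 and Girk3-null replicate 1 lay below Girk3-null replicate 2 and below wild type replicates 1 and 2, as the interferon-stimulated genes did. The same held for the low sums of T and NK cell and plasmacytoid dendritic cell markers. Wild type replicate 1 was the highest library for 38 of 42 interferon-stimulated genes and 6 of 8 tested neutrophil markers. It was highest for 0 of 10 erythroid and 0 of 7 B lineage markers, and for 12.3% of all genes tested. Macrophage markers, all 14 counted in every library, varied less, at 423, 328 and 329 CPM against 402, 396 and 286 CPM. Endothelial markers, all 11 counted in every library, summed to 182 to 271 CPM in wild type and 52.7 to 146 CPM in Girk3-null libraries. Skeletal muscle markers, all 10 counted, summed to 29.7 to 73.3 CPM in wild type and 12.1 to 31.0 CPM in Girk3-null libraries. T and NK cell markers summed to at most 0.783 CPM, with Ncr1 and Gzma at 0 in every library, and markers of plasmacytoid dendritic cells, a main source of type I interferon, to 0.512 to 1.23 CPM, with Klk1 at 0. Lower Girk3-null levels below 200 together with higher ones above 200 were found for 10 of 10 tested erythroid markers, 6 of 7 B lineage, 5 of 8 neutrophil, 8 of 14 macrophage and 2 of 2 plasmacytoid dendritic cell markers, and for 0 of 11 endothelial, 0 of 10 muscle, 1 of 6 osteoblast and 1 of 10 chondrocyte markers. The part of these cells in the levels of the interferon-stimulated genes was not tested, and in bulk RNA fewer cells of a type cannot be told apart from less RNA per cell.

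**Figure D4:**
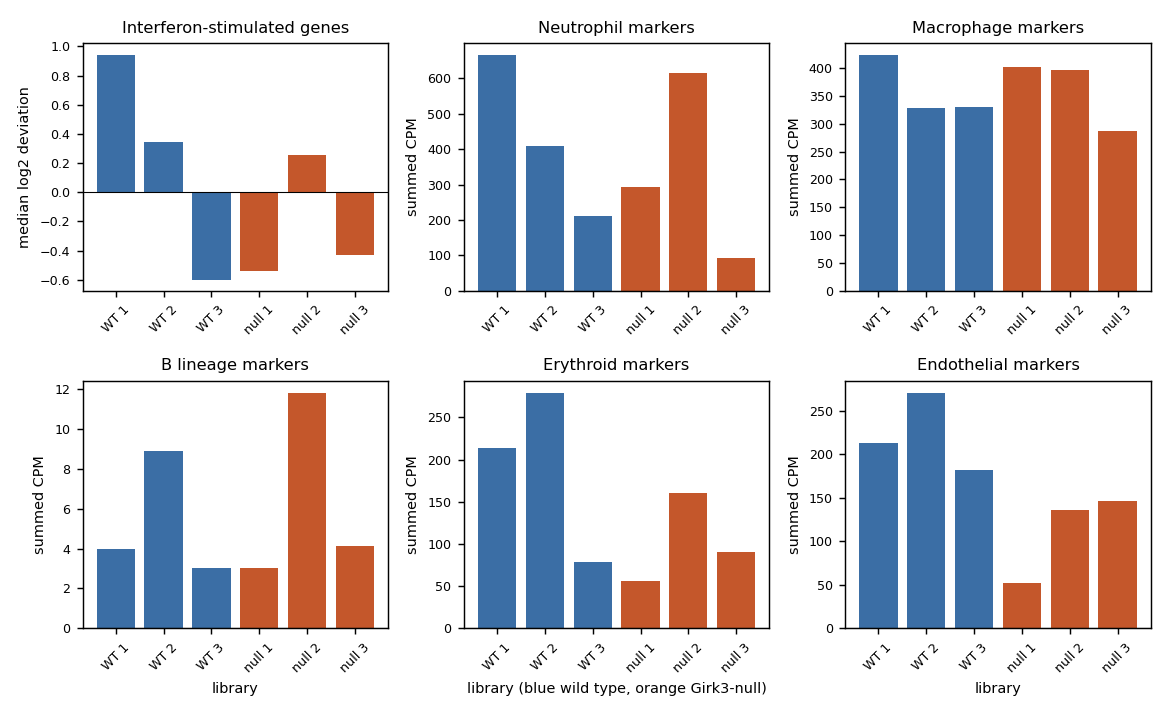
Median log2 deviation of the 42 interferon-stimulated genes (first panel) and summed TMM-scaled CPM of marker lists for 5 other cell types (other panels) in each library, wild type in blue and Girk3-null in orange. The interferon panel is highest in wild type replicate 1 (0.94) and lowest in wild type replicate 3 (-0.60), and neutrophil markers are likewise highest in wild type replicate 1 (665 CPM) but lowest in Girk3-null replicate 3 (93.4 CPM).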

How the data were processed

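Polyadenylated RNA of 6 libraries, 3 wild type and 3 Girk3-null by the genotype label, was read by sequencing; replicates were numbered in deposit order. The deposited table pairs each gene's raw counts with RPKM, in which the authors divided counts by library total and gene length, per the file headers. The submitters' processing notes name bcl2fastq 2.19.0, STAR 2.5.2b and the mm10 build. How reads were counted (tool, annotation, strand) is not given in the sources used here. Replicates differed beyond sampling noise (chi-square per degree of freedom 26.3 to 138), so none was a copy.

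Genes were kept by filterByExpr (minimum count 10, minimum total 15) and tested on the whole table with edgeR 4.0.16 (quasi-likelihood, genotype alone, TMM factors) in R 4.3.3, with Benjamini-Hochberg adjustment over 17554 genes and a threshold of 0.05. On simulated counts of 17554 genes for this comparison, 74.0% of genes set at 2-fold were called, as were 98.3% of those at 4-fold. Changes were set only in genes with an average log2 CPM above 1, so the shares do not cover genes with lower levels. The false share of calls was 6.68%. These shares were not worked out for the interferon-stimulated genes alone. The median ratio of the highest to the lowest wild type library was 2.95 for those genes, as against 1.29 over all genes tested. The shares therefore do not say how often a change in the interferon-stimulated genes would be called. Levels are TMM-scaled CPM; deviations and title-range differences use log2 CPM with a prior count of 2. Alternatives were RLE factors, library size only, no filter, DESeq2 1.42.0, limma 3.58.1 (voom, and log2(RPKM + 0.1) and log2(RPKM + 1)), a title-number term, title-number ranges, and each library left out. P-values set each gene's genotype difference against the spread between these samples within a genotype. The members, roles and lists were chosen with earlier results of these data known. Library values were given for up to 3 members per role with the highest mean RPKM and the member with the smallest p; of pathway lists, Ifnb1, Ifng, the receptors, Irf1 and the 4 smallest p-values were named; 1 gene under this rule is not reported here.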

Additional observations from a re-analysis of the deposited data

How the results depend on the processing

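No paired analysis was possible because the labels give the samples no shared replicate numbers. In each of the 14 alternatives with a test 0 of the 42 genes were called. Genes called over the whole table numbered 1 as reported, 53 with no filter on low counts, 357 in DESeq2, and 0 with library size only, in limma-voom, on log2(RPKM + 0.1), on log2(RPKM + 1) and with the title-number term. Members lower at an unadjusted p under 0.05 numbered 2 as reported (7.02% of all genes), 10 with library size only (13.3%), 15 with no filter (5.93%) and 0 with the title-number term (5.63%). Library size only shifted the median of all genes by -0.11, and the median of the members relative to it was -0.57; log2(RPKM + 0.1) likewise shifted it by -0.11, with -0.46 relative to it. Leaving out 1 library at a time gave 0 to 74 genes called, 1 to 24 members lower at an unadjusted p under 0.05, and 0 to 20 members with groups apart (20 when wild type replicate 3 was dropped, where 22.2% of all genes were apart in that direction, and 5 when Girk3-null replicate 2 was, where 15.5% were). The cause was not tested.

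The sign of the log2 fold change turned for Ddx58 and Ifi35 with library size only (-0.085 and -0.011), on log2(RPKM + 0.1) (-0.063 and -0.035) and on log2(RPKM + 1) (-0.057 and -0.029). It turned for Stat2 in limma-voom (0.049). With the title-number term it turned for Irf9 (0.0075), Stat2 (0.18), Dhx58 (0.059), Bst2 (0.085) and Psmb8 (0.0041). With 1 library left out at a time it turned for 15 genes, whose ranges were -0.69 to 0.062 for Irf7, -0.32 to 0.21 for Irf9, -0.23 to 0.30 for Stat2, -0.33 to 0.18 for Dhx58, -0.36 to 0.28 for Bst2, -0.81 to 0.13 for Rtp4, -0.59 to 0.0081 for Xaf1, -1.02 to 0.085 for Isg15, -1.12 to 0.048 for Usp18, -0.67 to 0.0023 for Herc6, -0.15 to 0.062 for Trim25, -0.77 to 0.021 for Irgm2, -0.56 to 0.20 for Psmb8, -0.16 to 0.31 for Ddx58 and -0.12 to 0.35 for Ifi35.

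Within title numbers below 200 the members' median was -1.23, 36 had groups apart, and the sign turned for Ddx58 (-0.016) and Psmb9 (-0.063). Above 200 the median was 0.58. The sign there turned for Irf7 (0.63), Irf9 (0.42), Stat2 (0.57), Ifih1 (0.29), Dhx58 (0.40), Zbp1 (0.72), Ifit1 (0.60), Ifit2 (0.51), Ifit3 (0.97), Rsad2 (0.51), Cmpk2 (0.66), Mx1 (0.89) and Mx2 (0.68). It did so too for Bst2 (0.69), Samd9l (0.021), Eif2ak2 (0.19), Ifi44 (0.61), Rtp4 (0.96), Xaf1 (0.61), Oas1a (0.65), Oasl1 (0.20), Oasl2 (0.54), Isg15 (1.02), Usp18 (0.89), Herc6 (0.59) and Trim25 (0.14). The same held for Parp9 (0.33), Dtx3l (0.11), Parp14 (0.39), Gbp2 (0.26), Gbp3 (0.64), Irgm1 (0.40), Irgm2 (0.72), Igtp (0.90), Iigp1 (0.38), Ifi47 (0.997) and Psmb8 (0.74).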

Other observations

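Of 48 tested interferon-stimulated genes outside the 42, 33 were lower in Girk3-null libraries (median log2 fold change -0.24). In edgeR 0 passed, with 6 lower and 3 higher at an unadjusted p under 0.05, where 7.02% of all genes tested were lower and 7.49% higher. For 35 of these 48 the Girk3-null libraries were lower within title numbers below 200 and higher above 200, as for 22.0% of all genes tested. Wild type replicate 1 was the highest library for 32 of them, as for 12.3% of all genes tested. Cxcl9, a T cell-attracting chemokine, measured 2.48, 2.70 and 0.464 CPM in wild type and 0.287, 0.734 and 0.374 CPM in Girk3-null libraries, in replicate order (log2 fold change -2.03, edgeR adjusted p = 0.291). Slfn5, a Schlafen family gene, measured 26.5, 22.6 and 7.61 CPM against 5.40, 9.97 and 7.33 CPM (-1.33, edgeR adjusted p = 0.291). In both, wild type replicates 1 and 2 stood above the other 4 libraries.

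Tap2 and Tapbp, the partner and the loading factor of Tap1, ran the other way. Tap2 measured 18.0, 11.9 and 18.3 CPM in wild type and 26.5, 29.1 and 28.3 CPM in Girk3-null libraries, and Tapbp measured 118.5, 82.0 and 135.9 CPM against 162.2, 150.9 and 168.8 CPM. The groups did not overlap for either gene, which for a higher Girk3-null level was the case for 9.86% of all genes tested, and neither passed (log2 fold changes 0.80 and 0.52, edgeR adjusted p = 0.291 for both).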
